A study of Mus musculus with 6 samples.

Results

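The angiopoietin and Tie receptor system was followed as 7 genes of the 12623 in the expression table: the receptor genes Tek and Tie1, the phosphatase gene Ptprb, the ligand genes Angpt1 and Angpt2, and the angiopoietin-like genes Angptl2 and Angptl4. They were chosen by symbol, with earlier results of these data known. Each had 1 transcript row, and all 7 passed the filter on low values. Total RNA from endothelial cells (EC), the cells that line blood vessels, had been sequenced after sorting from lungs of C57BL/6N mice, with 3 libraries from infant and 3 from young adult animals. The mice carried no transgene or treatment that the labels name, and every library passed the same sort for living cells with CD31 and CD34 and without PTPRC, LYVE1, PDPN and LY76. The comparison asked how the system differs between lung EC of growing vessels and those of vessels at rest.

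TIE2, the product of Tek, is a receptor tyrosine kinase found mainly on EC. Its ligand ANGPT1, made largely by mural and other mesenchymal cells, activates it and keeps the vessel wall stable and leak-tight through the kinase AKT, which holds the transcription factor FOXO1 out of the nucleus. ANGPT2, made by EC and kept in their secretory granules, activates or blocks the same receptor depending on context. TIE1 is a co-receptor that binds neither ligand with high affinity, and Ptprb encodes VE-PTP, a phosphatase that takes phosphate off TIE2 and off VE-cadherin. ANGPTL2 and ANGPTL4 share the domain order of the angiopoietins but do not bind TIE2. ANGPTL4 blocks lipoprotein lipase, the enzyme that frees fatty acids from blood lipoproteins at the capillary wall.

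Promoter sequence was at hand for 3 of the 7 genes and is shown because these genes differed in direction: Tek was higher in young adult EC, Tie1 showed no called change and Angptl2 was lower. Each line gives the 250 bases before 1 transcript start of RefSeq (assembly GRCm38.p6, whose coordinates are those of mm10), read 5′ to 3′ on the gene's strand. Because the gene positions given further on span every RefSeq transcript of a gene, 203 bases of the Tek window and 10 of the Angptl2 window lie inside that span, and 0 of the Tie1 window. Capitals mark GGAA, the core that ETS factors of EC bind, or its complement on the other strand.
Tek (chr4:94739039-94739288, plus strand): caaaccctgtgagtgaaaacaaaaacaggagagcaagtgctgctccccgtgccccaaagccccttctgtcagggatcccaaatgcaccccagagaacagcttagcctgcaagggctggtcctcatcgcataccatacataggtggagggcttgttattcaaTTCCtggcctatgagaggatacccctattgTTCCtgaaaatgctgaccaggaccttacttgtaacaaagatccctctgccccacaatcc
Tie1 (chr4:118489850-118490099, minus strand): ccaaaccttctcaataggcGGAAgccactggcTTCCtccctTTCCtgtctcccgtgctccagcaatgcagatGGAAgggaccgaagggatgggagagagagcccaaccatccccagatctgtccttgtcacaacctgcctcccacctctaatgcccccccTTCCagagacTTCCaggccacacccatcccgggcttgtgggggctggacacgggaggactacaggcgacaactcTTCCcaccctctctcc
Angptl2 (chr2:33215711-33215960, plus strand): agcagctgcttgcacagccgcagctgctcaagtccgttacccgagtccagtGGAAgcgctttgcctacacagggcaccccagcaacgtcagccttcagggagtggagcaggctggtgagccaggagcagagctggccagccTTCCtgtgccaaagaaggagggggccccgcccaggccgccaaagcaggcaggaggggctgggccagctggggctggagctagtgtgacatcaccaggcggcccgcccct
The Tie1 window held 7 matches to GGAA, and those of Tek and Angptl2 held 2 each. Of 32536 such windows, 93.4% held at least 1 match, 76.9% at least 2 and 3.82% at least 7. The letters AGATAA, a motif of GATA2 and its relatives, were looked for on both strands, were absent from these 3 windows and occurred in 9.97% of all windows. The forkhead motif GTAAACA was likewise absent here and occurred in 3.17%. None of the 3 motifs contains another. Angpt1, Angpt2, Ptprb and Angptl4 had no entry.

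The libraries were measured as RPKM, reads scaled to transcript length and to library size, so that levels can be set side by side between genes. RPKM totals ran from 362970 to 428155 over the 6 libraries, and the number of reads behind them is unknown. Among the infant libraries, replicate 2 stood apart: across genes, on log2(RPKM + 1), it correlated at 0.964 with both others and at up to 0.963 with young adult libraries, whereas infant replicates 1 and 3 correlated at 0.987. The Y-linked gene Ddx3y measured 16.5 to 21.9 RPKM in infant libraries and 0 in all young adult libraries. The X-linked gene Xist measured 7.6 to 8.7 RPKM in infant and 12.5 to 15.6 RPKM in young adult libraries, so every infant library held both transcripts. The sex make-up of the libraries and the age of the animals cannot be told apart, although the study's methods name female mice. The EC markers Pecam1 and Cdh5 were abundant throughout (309.8 to 657.8 and 213.8 to 316.9 RPKM). Lyve1, whose protein had been selected against, still measured 68.6 to 171.4 RPKM in infant and 252.9 to 396.4 RPKM in young adult libraries. Pdpn, also selected against, measured 0.8 to 1.7 RPKM in infant and 0.3 to 0.7 RPKM in young adult libraries. Among 5 lymphatic EC markers tested, these genes included, 1 had a log2 fold change above 0 and 4 had one below 0. Globin genes took up 3.41% to 23.5% of the RPKM in infant and at most 0.487% in young adult libraries. All 7 erythroid markers, 4 of 11 leukocyte markers and 4 of 10 epithelial markers were called lower, and 1 epithelial marker higher, and their part in the results below was not tested. The leukocyte gene Ptprc gave 3.0 to 7.0 RPKM in infant and 0.2 to 1.8 in young adult libraries, and the epithelial gene Epcam 0.6 to 1.1 and 0 to 0.5. Other markers of these lists were abundant: Sftpc and Scgb1a1, which encode secreted airway and alveolar proteins, reached 4883.1 and 6286.0 RPKM and the myeloid lysozyme gene Lyz2 515.5 RPKM. The summed epithelial markers were 6490.1 to 11348 RPKM in infant and 1834.9 to 8370.1 in young adult libraries, and the summed leukocyte markers 304.4 to 500.4 and 140.3 to 538.2.

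A gene counted as called with a limma adjusted p under 0.05 together with a change of over 0.81 on the log2(RPKM + 1) scale, the fold threshold of the study. By this rule Tek and Ptprb were higher and Angpt1, Angptl2 and Angptl4 lower in young adult libraries, while Angpt2 and Tie1 did not pass both limits. Throughout, infant EC and young adult EC stand for the sorted libraries, which also held transcripts of other cell types. Called genes were 5 of 7, against 11.4% of the 12458 genes tested, with 2 higher (3.33% of all genes) and 3 lower (8.10%). Because the members were chosen with earlier results of these data known, these shares are a description only. An adjusted p under 0.05 at any size of change was reached by 6 of the 7, against 25.5% of all genes. Calls over all genes numbered 415 higher and 1009 lower, and 532 higher and 611 lower after quantile normalization. Angpt1 and Angpt2, ligands of the same receptor, had log2 fold changes of opposite sign.

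**Figure D1:**
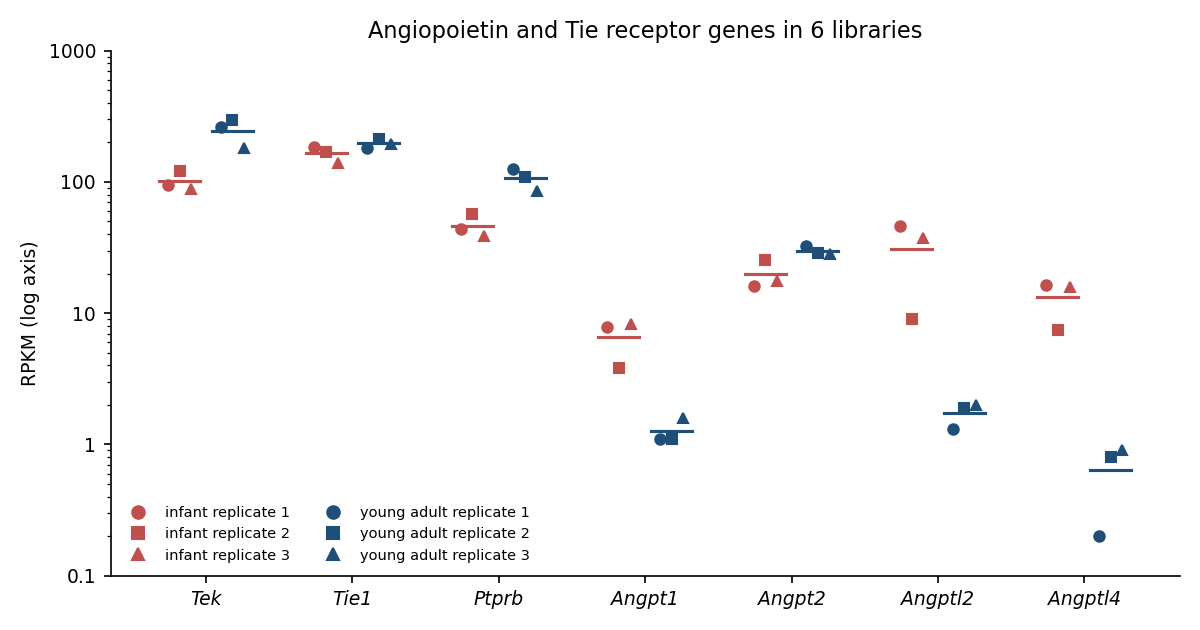
RPKM of the 7 genes on a log axis, 1 point per library (infant red, young adult blue, marker shape by replicate number) with a line at the mean of 3 libraries. Tek, Ptprb and Angpt2 lie higher in all young adult libraries, Angpt1, Angptl2 and Angptl4 lower, and the Tie1 points of the groups overlap.

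Tek (transcript row NM_013690, whole gene on chromosome 4 from 94739086 to 94874976) gave 94.1, 121.6 and 88.3 RPKM for infant replicates 1 to 3, in that order, while the young adult replicates gave 260.3, 295.9 and 180.0 RPKM. The groups did not overlap, which held for 43.4% of all genes tested, and the lowest young adult library was 1.48 times the highest infant library. The mean was 101 ± 17.8 RPKM in infant and 245 ± 59.4 RPKM in young adult EC (SD, n = 3 per group), a ratio of 2.42. On the log2(RPKM + 1) scale the change was 1.25 ± 0.21 (SE), with a 95% interval of 0.76 to 1.74 and a limma adjusted p of 0.00712. In bulk libraries of this kind, more cells of a type and more RNA per cell cannot be told apart. Tek moved from rank 385 to rank 132 by level among the genes tested. It was called in each of the 6 fits that left out 1 library, with adjusted p from 0.00154 to 0.0384.

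Tie1 (NM_011587, chromosome 4, 118471191 to 118489849) gave 185.6, 169.6 and 139.6 RPKM in the infant group, against 181.9, 213.0 and 195.3 in the young adult group. Young adult replicate 1 lay below infant replicate 1, so the groups overlapped. The means of 165 ± 23.4 and 197 ± 15.6 RPKM gave a log2 fold change of 0.26 ± 0.14 with a limma adjusted p of 0.213. Its 95% interval, from -0.07 to 0.59, held both no change and a rise of up to 1.51-fold, and lay below the fold threshold.

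Tie1 was the most abundant of the 7 genes in infant EC, above Tek in 3 of 3 libraries without overlap. In young adult EC the mean of Tek was the higher one, in 2 of 3 libraries. The ratio of Tie1 to Tek was 1.97, 1.39 and 1.58 in the infant libraries, against 0.699, 0.720 and 1.08 in the young adult ones. All 3 infant libraries lay above all 3 young adult libraries. The log2 ratio of RPKM + 1 differed by -0.99, with an exact two-sided permutation p of 0.1, the smallest that 3 against 3 libraries allow, and 0.167 after Benjamini-Hochberg adjustment over 5 ratios. This design could not reach 0.05.

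Both receptors were also set against Cdh5, which encodes VE-cadherin, the adhesion molecule that joins EC to each other. Cdh5 itself had a log2 fold change of 0.28 ± 0.17 (limma adjusted p 0.256). Tek amounted to 0.405, 0.392 and 0.413 times Cdh5 in infant libraries and to 0.942, 0.941 and 0.568 times in young adult libraries. The infant values lay close together and below every young adult value, of which replicate 3 was lowest (difference in log2 ratio 0.97, exact permutation p 0.1). For Tie1 the ratio to Cdh5 was 0.666 ± 0.126 and 0.651 ± 0.0312, a difference in log2 ratio of -0.02 (exact permutation p 1). Of 16 EC markers that did not include the 7 genes, 14 had a log2 fold change above 0, the median was 0.35 and 1 was called (Vwf, which encodes von Willebrand factor). With every library centred on these markers, the log2 fold change of Tek was 1.19 (limma adjusted p 0.000961) and that of Tie1 0.20 (0.626).

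Ptprb (NM_029928, chromosome 10, 116275502 to 116389538) gave 43.5, 57.2 and 38.8 RPKM in the infant group, against 126.4, 109.5 and 84.9 in the young adult group. As for Tek, the groups did not overlap. The mean rose from 46.5 ± 9.56 to 107 ± 20.9 RPKM, a ratio of 2.30 (log2 fold change 1.18 ± 0.19, limma adjusted p 0.00602, and 0.000722 to 0.0369 in the fits without 1 library). VE-PTP acts on the receptor that Tek encodes, and its transcript stood at 0.462, 0.470 and 0.439 times that of Tek in infant libraries and at 0.486, 0.370 and 0.472 times in young adult libraries. These ratios overlapped, with a difference in log2 ratio of -0.07 (exact permutation p 0.9). Within the young adult group, replicate 3 was the lowest for both genes.

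Tek and Ptprb had stood among 8 markers of general capillary EC. The 6 others, Lpl and Gpihbp1 among them, all had higher means in young adult EC, by a median of 1.06 on the log2 scale. Called higher were 3 of these 6, against 3.33% of all genes. Their summed level was 468.1 to 676.0 RPKM in infant and 1266, 1250 and 918.5 RPKM in the young adult group, so that replicate 3 was again lowest in its group. Markers of aerocytes, the other lung capillary type, had a median of -0.35, with 3 of 7 above 0. Called lower was 1 of the 7, against 8.10% of all genes. Summed aerocyte markers overlapped between the groups, at 1536.8 to 2579.2 RPKM in infant and 1646.6 to 2346.4 RPKM in young adult libraries. The median over all genes tested was -0.07. Venous EC markers had a median of 1.38, with 4 of 6 called higher and 1 lower, against 3.33% and 8.10% of all genes. These summed to 53.8 to 65.1 RPKM in infant and to 173.1, 133.8 and 119.2 RPKM in the young adult group. Replicate 3 was lowest there as well. Arterial EC markers had a median of 0.008, with 0 of 6 called higher and 1 lower. The part of capillary, venous and arterial types in the rise of Tek and Ptprb was not tested.

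**Figure D2:**
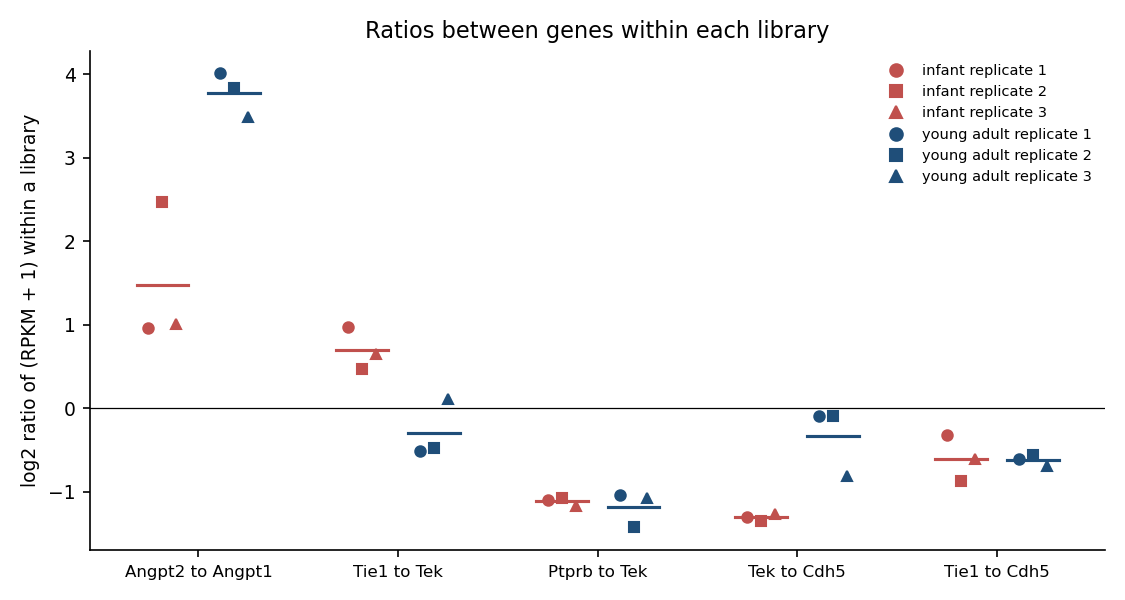
Log2 ratio of RPKM + 1 between gene pairs within each library (infant red, young adult blue, marker shape by replicate number, lines at the mean of 3). Angpt2 to Angpt1 and Tek to Cdh5 are higher and Tie1 to Tek is lower in all young adult libraries, whereas Ptprb to Tek and Tie1 to Cdh5 overlap between the groups.

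Angpt1 (NM_009640, chromosome 15, 42424667 to 42676977), the activating ligand, gave 7.8, 3.8 and 8.3 RPKM in the infant group, against 1.1, 1.1 and 1.6 in the young adult group. Every infant library lay above every young adult library, and infant replicate 2 was the lowest of its group. The mean was 6.63 ± 2.47 and 1.27 ± 0.289 RPKM, 5.24 times higher in infant EC. The log2 fold change was -1.70 ± 0.25 (limma adjusted p 0.00456), a value that the pseudocount of 1 holds down at such levels. An antisense gene covers 14.2% of the exon bases of Angpt1, and the library kit does not mark strand, so its reads cannot be told apart from those of Angpt1.

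Mural cells, the smooth muscle cells and pericytes around vessels, are known as a source of ANGPT1. Of 14 mural markers 13 were called lower, and their summed level was 161.7 to 384.0 RPKM in infant and 20.8 to 30.4 RPKM in young adult libraries. Pdgfrb, a defining receptor gene of these cells, gave 69.4, 17.4 and 57.1 RPKM in the infant group, against 1.2, 2.2 and 1.9 in the young adult group. Angpt1 equalled 2.39%, 2.35% and 2.16% of the summed mural markers in the infant group, against 5.29%, 3.62% and 5.84% in the young adult group. Of the 14 markers, 1 was at 0 in at least 1 library, and 11 had their lowest infant value in replicate 2, Higd1b and Cox4i2 not among them. The part of mural cells in the fall of Angpt1 was not tested. Megakaryocytes and platelets can also carry ANGPT1, and their marker Pf4 measured 1.5 to 7.5 RPKM in infant and 3.6 to 7.0 RPKM in young adult libraries. Of 4 such markers tested, Pf4 included, 2 had a log2 fold change above 0 and 2 below 0. Called were 0 of the 4, against 11.4% of all genes.

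Angpt2 (NM_007426, chromosome 8, 18690263 to 18741562), the context-dependent ligand, gave 16.2, 25.6 and 17.7 RPKM in the infant group, against 32.8, 29.0 and 28.1 in the young adult group. The groups did not overlap, but the highest infant library, replicate 2, came within 1.10-fold of the lowest young adult library. Its mean was 19.8 ± 5.05 and 30.0 ± 2.49 RPKM, a ratio of 1.51. The log2 fold change of 0.60 ± 0.17 had a limma adjusted p of 0.0371 and stayed under the fold threshold. Without 1 library the adjusted p was over 0.05 in 5 of 6 fits, and only without infant replicate 2 did it fall, to 0.00119. Centred on EC markers it was 0.0854. The gene lies inside Mcph1 on the other strand, with 0 shared exon bases, and Mcph1 measured at most 2.2 RPKM.

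The balance of the angiopoietins was read as a ratio within each library. Angpt2 stood at 2.08, 6.74 and 2.13 times Angpt1 in infant libraries and at 29.8, 26.4 and 17.6 times in young adult libraries. No library of one group reached the other, although infant replicate 2 stood closer to the young adult values than its companions did. The log2 ratio of RPKM + 1 was 1.48 ± 0.86 and 3.78 ± 0.27, which differ by 2.29 (p 0.1 by two-sided exact permutation, the smallest possible, and 0.167 adjusted over the 5 ratios). Leaving out 1 library gave differences between 2.04 and 2.79. The size depended on the pseudocount, with 2.86 at 0.1 and 1.38 at 5.

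Angptl2 (NM_011923, chromosome 2, 33215951 to 33247725) encodes a secreted protein known from inflamed and fatty tissue. It gave 46.0, 9.0 and 37.1 RPKM in the infant group, against 1.3, 1.9 and 2.0 in the young adult group. All young adult libraries were low and close together, and infant replicate 2 was 4.62 times lower than the mean of infant replicates 1 and 3, yet still 4.50 times above the highest young adult library. The mean was 30.7 ± 19.3 and 1.73 ± 0.379 RPKM, 17.7 times higher in infant EC (log2 fold change -3.27 ± 0.52, limma adjusted p 0.00579). Among all genes tested it was the fall of rank 50. The gene lies inside Ralgps1 on the other strand, with 0 shared exon bases, and Ralgps1 measured at most 2.4 RPKM.

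Angptl4 (NM_020581, chromosome 17, 33774900 to 33781575) gave 16.5, 7.4 and 15.8 RPKM in the infant group, against 0.2, 0.8 and 0.9 in the young adult group. The groups lay at least 8.22-fold apart, with infant replicate 2 again lowest of its group. The mean was 13.2 ± 5.06 and 0.633 ± 0.379 RPKM, 20.9 times higher in infant EC, where the young adult values are coarse because the table is rounded to steps of 0.1. The log2 fold change was -3.08 ± 0.30 with a limma adjusted p of 0.00128, and the call held in all 6 fits without 1 library.

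**Figure D3:**
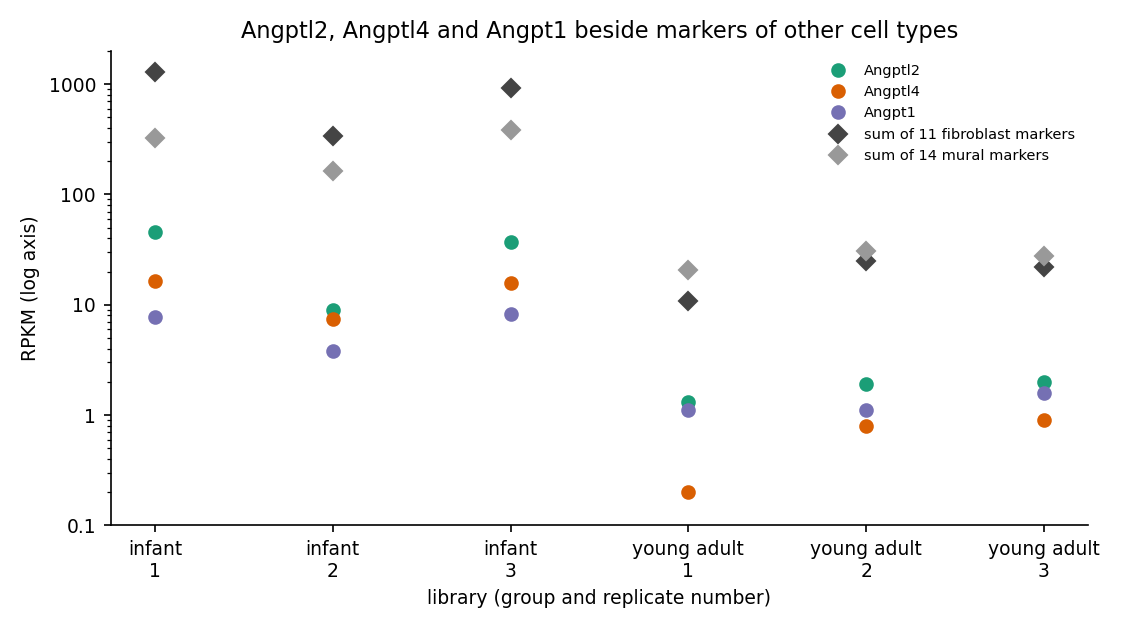
RPKM on a log axis of Angptl2, Angptl4 and Angpt1 (circles) and the summed RPKM of 11 fibroblast and 14 mural markers (diamonds) in each library. All 5 quantities are lower in young adult libraries, and within the infant group all 5 are lowest in replicate 2.

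Fibroblast markers moved in the same direction as both angiopoietin-like genes. Of 11 tested, 10 were called lower, and none of the 11 was at 0 in any library. Their summed level was 1295, 340.0 and 914.3 RPKM in the infant group, against 10.7, 24.8 and 22.2 in the young adult group, and Pdgfra, a defining receptor gene of fibroblasts, measured 87.2, 2.6 and 66.8 RPKM and 0.2 to 0.6 RPKM. Angptl2 equalled 3.55%, 2.65% and 4.06% of this sum in infant libraries and 12.1%, 7.66% and 9.01% in young adult libraries. For Angptl4 the shares were 1.27%, 2.18% and 1.73% and then 1.87%, 3.23% and 4.05%. Single markers did not all follow the sum, to which collagen genes gave most in infant libraries: 8 of the 11 had their lowest infant value in replicate 2, but Dcn (7.6, 19.9 and 8.0 RPKM) and Lum (4.1, 14.4 and 4.7 RPKM) were highest there. The part of fibroblasts in these falls was not tested.

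Order by level differed between the groups. In infant EC it ran Tie1, Tek, Ptprb, Angptl2, Angpt2, Angptl4 and Angpt1, with overlap between all neighbours after Ptprb and between Ptprb and Angptl2. In young adult EC it ran Tek, Tie1, Ptprb, Angpt2, Angptl2, Angpt1 and Angptl4, where Tek overlapped Tie1 and Angptl2 overlapped Angpt1. Angpt2 and Angptl2, neighbours with overlapping ranges in infant EC, were apart in young adult EC at 28.1 to 32.8 against 1.3 to 2.0 RPKM.

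**Figure D4:**
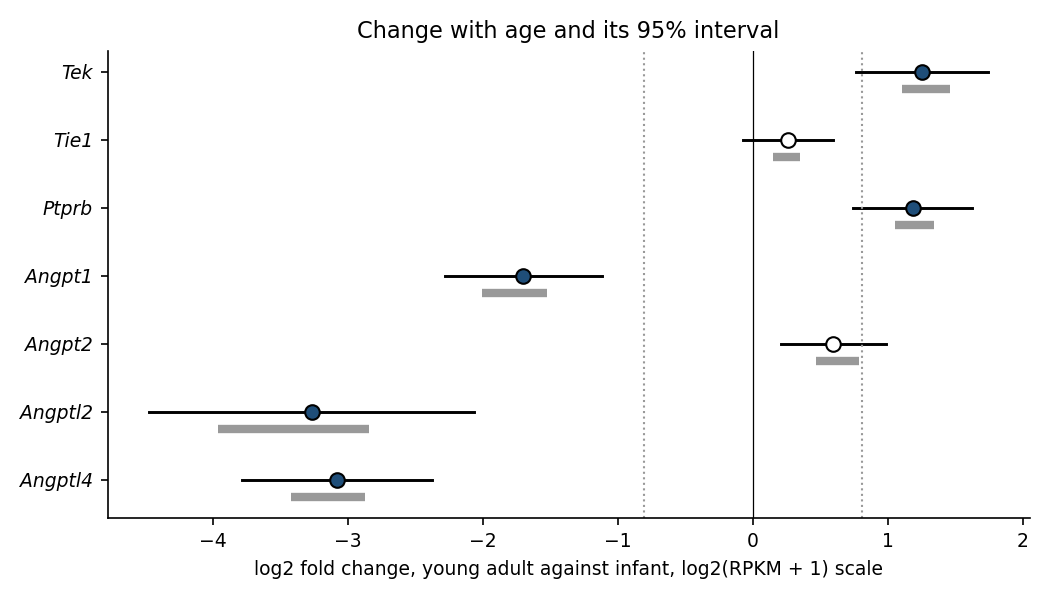
Log2 fold change of the 7 genes between young adult and infant EC on the log2(RPKM + 1) scale (circles, filled where called) with 95% intervals (black), the range over the 6 fits without 1 library (grey bars) and dotted lines at the fold threshold. The intervals of Angpt1, Angptl2 and Angptl4 lie wholly beyond the left dotted line, and that of Tie1 includes 0.

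**Figure D5:**
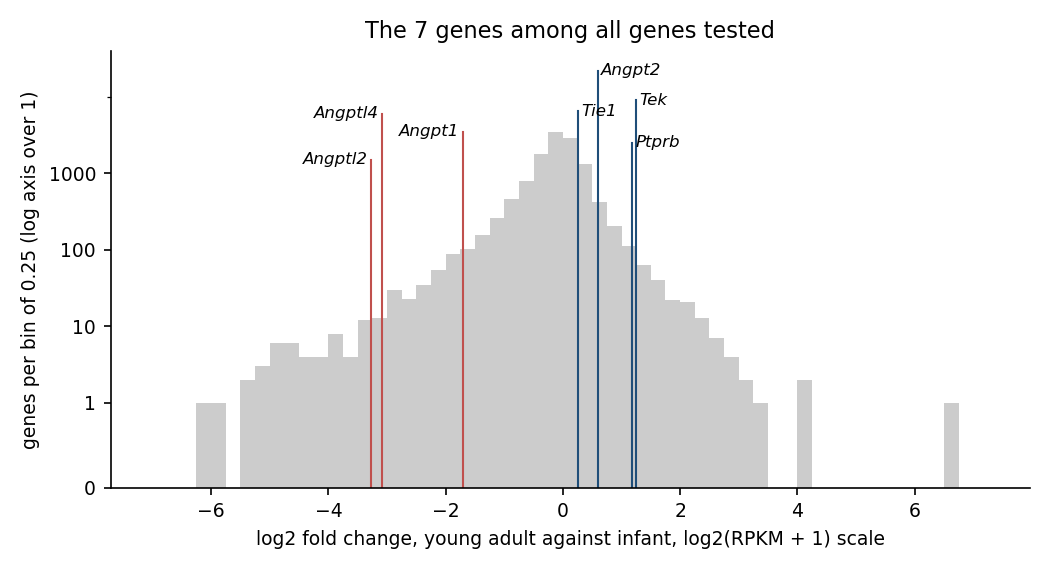
Histogram of the log2 fold changes of all 12458 genes tested, in bins of 0.25 with a log count axis, with the 7 genes marked (blue above 0, red below 0). Angptl2 and Angptl4 stand in the thin left tail, and Tie1 stands within the bulk.

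As a list, the adaptors and effectors of TIE2 moved little. Of 27 adaptors and effectors of TIE2 tested, 0 were called higher and 2 lower, and their median change on the log2 scale was -0.06 against -0.07 over all genes and 11.4% of all genes called. Among them was Pik3r2 (3.03 ± 1.27 to 1.03 ± 0.252 RPKM, -0.95 ± 0.22, limma adjusted p 0.0198), which encodes a regulatory subunit of PI3-kinase and was no longer called in 3 of the 6 fits that left out a library. Akt1 had a log2 fold change of 0.02 ± 0.13 and Foxo1 one of 0.17 ± 0.14, with limma adjusted p of 0.922 and 0.397. Transcript levels do not report the phosphorylation by which this pathway signals.

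Among 8 tested genes whose products shed, capture or neighbour the receptors and ligands, the median log2 fold change was -0.33 (-0.07 over all genes). Of these 8, 1 was called, against 11.4% of all genes. Mmp14, which encodes a membrane protease known to cleave TIE2 from the cell surface, gave 22.9, 11.7 and 19.9 RPKM in the infant group, against 2.8, 4.1 and 3.6 in the young adult group. The groups were well apart, with a log2 fold change of -2.05 ± 0.23 (limma adjusted p 0.00197), and infant replicate 2 was lowest of its group. The mural and fibroblast markers above were lower in the same libraries, and their part in the fall of Mmp14 was not tested.

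Known targets of FOXO1 gave 1 called higher and 2 lower of 16 tested, against 3.33% and 8.10% of all genes, with a median of -0.45. Of the 16, 12 had a log2 fold change below 0, as had 7295 of the 12458 genes tested. Without 1 library the list had 1 to 5 called genes. The count depended on the pseudocount, with 7 called at 0.1 and 1 at 5, against 1957 and 578 over all genes. Txnip, which encodes an inhibitor of thioredoxin, rose from 226 ± 115 to 494 ± 143 RPKM (1.19 ± 0.35, limma adjusted p 0.0416) but was no longer called in 5 of the 6 fits that left out a library. Gadd45a (-1.13 ± 0.15, adjusted p 0.00363), a stress response gene, and Ccng2 (-0.95 ± 0.16, adjusted p 0.00768), which encodes an atypical cyclin linked to arrest, fell. Angpt2, itself a FOXO1 target, is described above and is not counted here.

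On the side of lipid uptake, 3 of 16 genes tested were called, all higher, against 3.33% of all genes called higher, with a median of 0.07. Without 1 library the list had 0 to 4 called genes. Lpl, which encodes the enzyme that ANGPTL4 blocks, gave 14.3, 31.1 and 13.9 RPKM in the infant group, against 41.5, 57.2 and 23.5 in the young adult group. Young adult replicate 3 lay below infant replicate 2, and the log2 fold change of 1.02 ± 0.38 did not pass (limma adjusted p 0.0861). Lpl was called in 5 of 22 alternatives, among them EC marker centring (limma adjusted p 0.0308) and the fit without infant replicate 2 (0.0116). Gpihbp1, whose product anchors the enzyme to the capillary wall, rose from 275 ± 89.1 to 605 ± 90.0 RPKM (1.17 ± 0.24, adjusted p 0.0137). Fabp4 and Cd36, which encode a carrier and a receptor of fatty acids, rose by 0.90 ± 0.17 and 1.08 ± 0.31 (limma adjusted p 0.0116 and 0.0402). Leaving out 1 library ended the call of Gpihbp1 in 2, of Fabp4 in 4 and of Cd36 in 5 of 6 fits. Of the other angiopoietins and angiopoietin-like genes, Angptl6 and Gm6484 (an older symbol of Angptl8) were tested, neither was called, and neither exceeded 2.3 RPKM in any library.

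Genes with the most similar pattern over the 6 libraries were listed for members with a mean of at least 5 RPKM, by Pearson correlation on the log2(RPKM + 1) scale. The 6 points share 2 groups and the scaling of each library, so high values are common and are given as a description. Closest to Tek were Qsox1 (0.996), Avpi1 (0.992) and Meis2 (0.991), and 171 of 6983 genes exceeded 0.95. Closest to Ptprb were Sgsh (0.999), Acer2 (0.997) and 6430548M08Rik (0.997). For Angpt2 they were Prkch (0.998), Tle1 and Mfap1a (0.997 each), and for Tie1 they were Acbd4 (0.975), Hps4 (0.970) and Plvap (0.968), with 11 genes over 0.95. Angptl2 was followed by the collagen gene Col6a3, by Wnt5a and by Gm21451 (0.999 each), and Angptl4 by Hmgb3 (0.9996), the collagen gene Col3a1 (0.999) and Il1rl2 (0.998).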

How the data were processed

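EC were sorted from infant and young adult lungs, and 3 libraries per group were made from total RNA with the SMARTer Ultra Low kit. According to the study's methods and the submitters' processing notes, STAR placed the reads on mm10, and DESeq2 tested genes of the RefSeq annotation. The deposited values were RPKM computed by the authors, with 1 row per RefSeq transcript (17241 rows), rounded to 1 decimal. The program that made them is not given in the sources used here. Read depth is unknown, so no counting error was attached. Groups and replicate numbers came from the sample titles.

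For each of 12623 genes the row with the highest mean was kept. RPKM did not allow the count test of the study, so limma 3.58.1 (R 4.3.3) was run on log2(RPKM + 1) with an intensity trend and no covariate beside the age group. P-values were adjusted after Benjamini and Hochberg over the 12458 genes that reached an RPKM of 1 in any library. This filter and the fold threshold (0.81 on the log2 scale) follow the study, which does not say whether its p was adjusted. Ratios were compared by exact two-sided permutation (scipy 1.17.1). The script was tested on simulated data. Promoters and positions were those of RefSeq on GRCm38.p6, and overlaps came from GENCODE M21.

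The members and lists were chosen with earlier results of these data known. The text names all 7 members, the called genes of each pathway list, with Foxo1, Akt1, Cdh5, Lpl and Gpihbp1 in any case, defining markers, and the 3 genes most like each member. The values of 1 called gene of a pathway list are not reported here. The labels give no batch or date. They do not say that the libraries of a group came from separate animals, so p-values measure the spread between these libraries, which may be technical.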

Additional observations from a re-analysis of the deposited data

How the results depend on the processing

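Over 22 alternatives the log2 fold changes of the 7 genes kept their sign, but sizes of the low genes moved with the pseudocount: from 0.1 to 5, Angpt1 went from -2.24 to -0.87, just past the threshold of 0.81, Angptl4 from -4.28 to -1.65 and Angptl2 from -3.79 to -2.21. The calls of Tek, Ptprb, Angpt1 and Angptl2 held in 21 and that of Angptl4 in 22, while Tie1 and Angpt2 were called in 0. The exception was limma treat, which tests each gene against the fold threshold and is stricter by construction, with adjusted p of 0.695 for Tek (log2 fold change 1.25), 0.792 for Ptprb (1.18), 0.145 for Angpt1 (-1.70) and 0.0539 for Angptl2 (-3.27). It left 0 members called higher and 1 lower, 176 genes called (52 higher, 124 lower) in place of 1424 and 1 rather than 9 called over the 5 pathway lists. With a pseudocount of 5, 578 genes were called (240 higher, 338 lower) and 4 over the lists, against 15 over the lists with a pseudocount of 0.1. Quantile normalization called 611 genes lower and moved the median of all genes from -0.07 to 0.04. With every transcript row tested, 14 rows of the lists were called. Without 1 library, 842 to 1874 genes were called, 312 to 566 higher and 514 to 1308 lower, and 3 to 13 over the lists.

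Rescaling without the globin genes, chosen after seeing the data, gave 1.13 for Tek and 0.14 for Tie1. The labels do not say whether libraries of the same replicate number form pairs. Deviations from the group means correlated at 0.03, -0.11 and -0.02 between such libraries, which with 3 libraries per group cannot settle it. With the number as a replicate block, the limma adjusted p was 0.00877 for Tek and 0.0609 for Angpt2, the member calls were the same, and Lpl was called (0.0195), as it was with array weights (0.0141). The log2 ratio of Ptprb to Tek ranged from -0.14 to 0.056 without 1 library and that of Tie1 to Cdh5 from -0.15 to 0.12, so both changed sign. Akt1, at 0.02, gave -0.038 centred on EC markers, -0.097 rescaled without globin genes and -0.091 to 0.099 without 1 library. The unknown depth limits the low values of Angpt1, Angptl2 and Angptl4 in young adult libraries.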
